A study of Mus musculus with 47 samples.

Results

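The retina of 6-week-old C57BL/6 mice, a common inbred laboratory strain, was compared across dusk, between zeitgeber time (ZT, hours after lights on) 14 and ZT10. Lights went off at ZT12 under 12 h of light and 12 h of darkness, so ZT14 lay 2 h into the dark and ZT10 lay 2 h before it. The comparison used 4 libraries at ZT14 and 3 at ZT10, which are 7 of the 47 libraries of the study, and tested the 15027 of 57180 genes that reached 0.5 RPKM (reads scaled to exon length and to sequencing depth) in at least 3 of them. Polyadenylated RNA had been sequenced from 1 retina per mouse, from 4 mice at each age and time, dissected under dim red light. The other groups used here were 20-month-old mice of the same strain at ZT14 (4 libraries) and ZT10 (4 libraries), and 6-week-old mice at ZT22 (4 libraries) and ZT2 (4 libraries). No treatment, transgene or mutation is named for any of these groups, and the labels used here do not give the sex of the mice.

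At dusk the retina passes from cone-dominated to rod-dominated signalling. Rod photoreceptors hold their cation channels open in darkness, and the ion pumping that this current requires makes the dark the costlier phase for adenosine triphosphate. The retina also carries its own circadian clock, in which dopamine marks day, so a transcript can change at dusk with the light, with the clock or with both.

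Recovered read totals, to 3 digits, were 32500000 to 42500000 in the ZT14 libraries and 33000000 to 42800000 in the ZT10 libraries. ZT10 replicate 4 was left out of the comparison as a library of low quality. It held 55500000 reads but reached 0.5 RPKM for 12689 genes, against 14041 to 15033 in the 7 libraries used, and its correlation with those 7 over log2 values was 0.82 to 0.89, where they correlated with each other at 0.97 or above. Its summed RPKM of 80 cytosolic ribosomal protein genes was 25650, against 7945 to 9938 in the 7, and Glul, the glutamine synthetase of Müller glia, was at 49.8 RPKM, against 376.5 to 465.0. The tissue label held in the 7 libraries, where Gnat1, the transducin alpha subunit of rods, lay between 2489 and 3630 RPKM at ZT14 and between 2563 and 2890 RPKM at ZT10. Markers of neighbouring tissue were present too. The summed RPKM of 22 lens genes was 83.8, 395.4, 650.8 and 3352 at ZT14, the last in ZT14 replicate 1, against 16.4, 27.5 and 70.9 at ZT10. The sum of 29 genes of the retinal pigment epithelium (RPE) was 161.9 to 172.3 at ZT14 and 109.5 to 120.2 at ZT10. Without Slc16a3, which neural retina also uses, the RPE sum was 119.4 to 131.7 at ZT14 and 90.7 to 104.4 at ZT10, and Rpe65, its defining isomerase, was at 1.39 to 2.77 RPKM at ZT14 and 1.05 to 1.59 RPKM at ZT10. The part of these tissues in the results below was not tested.

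At an adjusted p under 0.05, 9 of 31 tested immediate early genes, 7 of 27 genes of glycolysis, 6 of 23 chaperones of the endoplasmic reticulum (ER) and 5 of 39 cytosolic chaperones were higher at ZT14 than at ZT10, against 0.639% of all tested genes. Most members of each list did not pass. The lists were chosen with earlier results of these data known, so these counts are no independent test. Both tested cold-inducible RNA-binding proteins were lower. With limma on log2(RPKM + 0.5) and Benjamini-Hochberg adjustment, 92 genes had an adjusted p under 0.05 together with a fold over 1.5 (0.612% of those tested), 48 higher (0.319%) and 44 lower (0.293%) at ZT14. In all 92 the libraries of both times did not overlap, but the calls were made from these same values. Of all tested genes 5.02% were apart and higher and 12.2% apart and lower. Of the 92, 26 were clone names, pseudogenes or without a symbol. By the adjusted p alone 169 genes passed (1.12%), of which 96 were higher (0.639%) and 73 lower (0.486%). The median log2 difference of all tested genes was -0.07, and 32.4% were above 0. Rescaling each library by its median ratio, which removes that offset, gave 58 higher and 21 lower genes, and quantile normalization 57 and 23, so the even split between rises and falls depends on the scaling.

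The count of calls was lower with fewer libraries. It was 23, 21 and 23 without ZT10 replicate 1, 2 or 3 and 33 without ZT14 replicate 4. With the low-quality ZT10 replicate 4 included it was 7, all higher at ZT14: Nr4a1, Ak4, Fos, Slc16a3, Egr1, Aqp1 and Hspa1b. When that library was included but down-weighted by limma's array weights, 222 genes passed, among them 87 of the 92. In bulk tissue, a change in the number of cells of a type and a change in RNA per cell cannot be told apart.

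**Figure D1:**
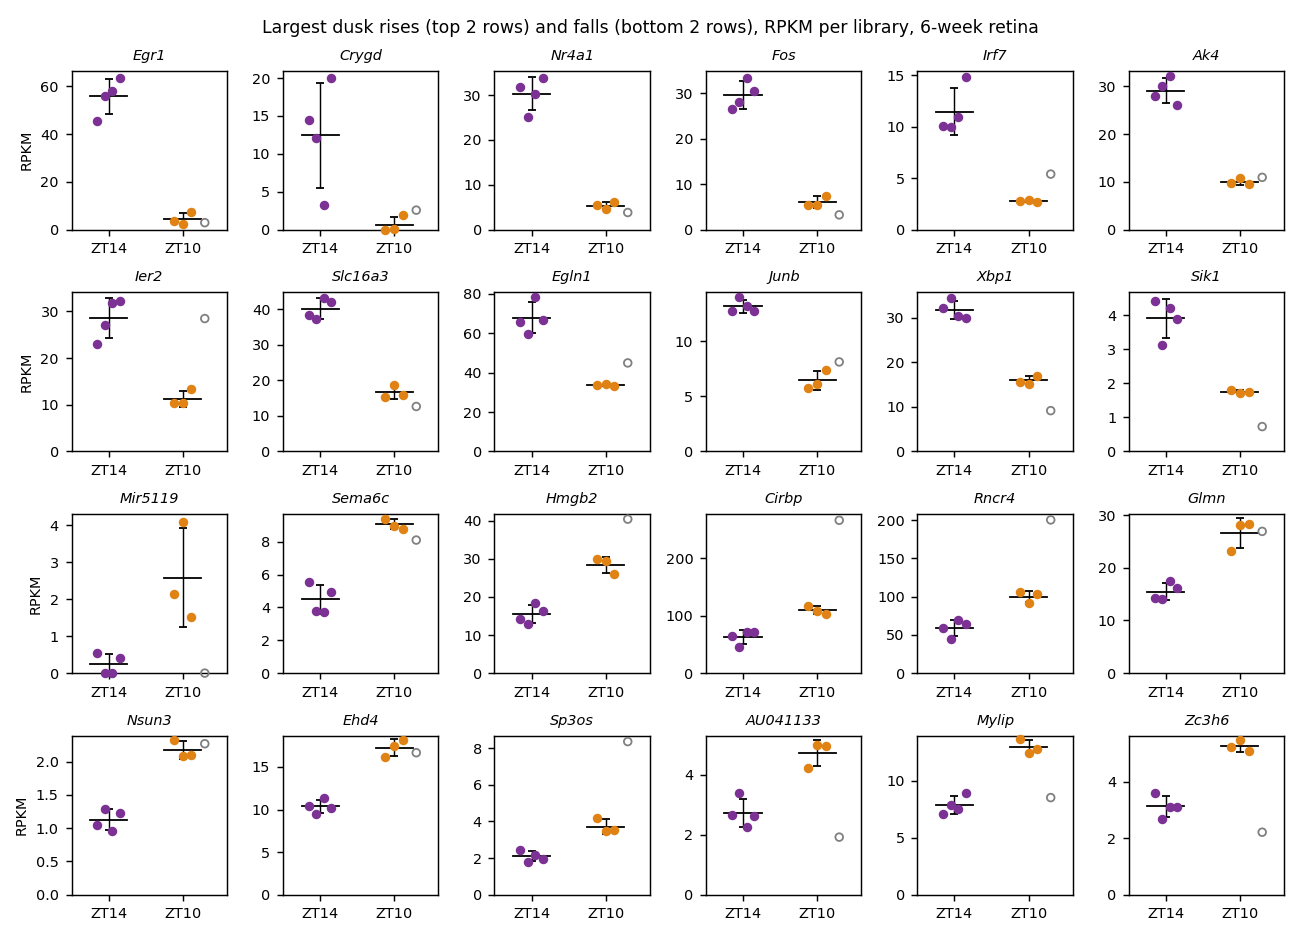
RPKM in each library of 6-week retina at ZT14 (purple, n = 4) and ZT10 (orange, n = 3) for the 12 largest rises and the 12 largest falls that met the naming rule; lines and bars are mean ± SD. Open grey circles are the ZT10 library left out of the comparison. The naming rule required that purple and orange points do not overlap, so they do not in any of the 24 panels.

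Immediate early genes, which are transcribed within minutes of a stimulus without new protein, included Egr1, Nr4a1 and Fos, which were 3 of the 4 largest rises shown by library. Of 31 tested, 9 rose and 0 fell at an adjusted p under 0.05, against 0.639% and 0.486% of all tested genes, and the list's median log2 difference was 0.10. Egr1, a zinc finger transcription factor, stood at 45.7, 55.8, 58.2 and 63.5 RPKM at ZT14, against 3.66, 2.55 and 7.28 RPKM at ZT10. The lowest ZT14 library thus lay far above the highest ZT10 library, and the log2 difference was 3.60 ± 0.28 (SE; limma adjusted p = 0.00128). Nr4a1, an orphan nuclear receptor, stood at 31.7, 25.2, 30.3 and 33.9 RPKM at ZT14, against 5.50, 4.61 and 6.11 RPKM at ZT10. Its log2 difference was 2.38 ± 0.12 (SE), with the smallest adjusted p of the whole comparison, 0.000278. Fos, a subunit of the AP-1 transcription factor, stood at 26.5, 28.0, 33.5 and 30.6 RPKM at ZT14, against 5.38, 5.45 and 7.53 RPKM at ZT10. All 4 dark libraries again lay above all 3 light ones, with a log2 difference of 2.20 ± 0.13 (SE; limma adjusted p = 0.000297).

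The rise covered other members at smaller size. Ier2, an early response nuclear protein, averaged 28.6 ± 4.33 RPKM at ZT14 (SD, n = 4) and 11.3 ± 1.69 RPKM at ZT10 (SD, n = 3). Junb, a further AP-1 subunit, averaged 13.1 ± 0.61 RPKM at ZT14 and 6.44 ± 0.84 RPKM at ZT10. Sik1, a kinase induced by cyclic AMP that restrains CREB coactivators, averaged 3.91 ± 0.57 RPKM at ZT14 and 1.76 ± 0.05 RPKM at ZT10. The stress-induced Ier3 rose by 0.71 on the log2 scale, and Dusp1 (0.71) and Dusp5 (0.51), phosphatases that switch off MAP kinases, rose as well. The rise did not extend to the whole class. Npas4, the neuronal activity factor, was at 0.46 to 0.88 RPKM at ZT14 and 0.34 to 0.86 RPKM at ZT10, and Arc, an activity-regulated synaptic protein, at 0.36 to 0.76 RPKM at ZT14 and 0.24 to 0.96 RPKM at ZT10, with overlapping groups and low levels in both. Jun, Fosl2, Klf6 and Nr4a2 had log2 differences of 0.11, 0.03, 0.02 and -0.08. Over the 31 tested members the differences ran from -0.80 to 3.60, and 21 were above 0. All ZT14 libraries were higher than all ZT10 ones in 12 members and lower in 2, against 5.02% and 12.2% of all tested genes. The number of members that rose was 5, 4 and 6 without ZT10 replicate 1, 2 or 3, 6 without ZT14 replicate 4, and 3 with the low-quality ZT10 library included. These 3 were Nr4a1, Fos and Egr1.

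The bases before the start of Fos and Nr4a1 are shown because both carry several copies of the cyclic AMP response element core, TGACG, at which CREB-family factors are known to bind. The windows are the 250 bases upstream of the start in RefSeq (GRCm38.p6), Fos at chr12:85473640-85473889 and Nr4a1 at chr15:101266596-101266845, both on the plus strand. Capitals mark the core, read as TGACG or, on the other strand, CGTCA.
Fos: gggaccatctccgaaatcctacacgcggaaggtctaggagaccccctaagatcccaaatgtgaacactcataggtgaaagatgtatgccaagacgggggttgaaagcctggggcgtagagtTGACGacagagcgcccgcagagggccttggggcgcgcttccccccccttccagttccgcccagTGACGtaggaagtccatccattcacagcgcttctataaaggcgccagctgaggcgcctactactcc
Nr4a1: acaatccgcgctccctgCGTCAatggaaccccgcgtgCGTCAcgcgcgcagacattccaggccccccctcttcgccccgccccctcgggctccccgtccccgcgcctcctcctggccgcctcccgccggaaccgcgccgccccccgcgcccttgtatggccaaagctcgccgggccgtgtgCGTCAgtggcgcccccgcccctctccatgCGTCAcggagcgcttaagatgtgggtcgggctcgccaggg
Fos held 2 copies of the core and Nr4a1 held 4. The core was present upstream of 5 of the 6 risen early genes with a window in the table, and of 14 of the 23 tested early genes with one. Genes with several windows were counted if any window held the core. Of all 32851 upstream windows of this length in the table, counted singly, 17.8% held it. The full palindrome TGACGTCA, which includes the core, was in 1.55% of windows and, among the risen early genes, in Dusp1. The serum response element, CC, 6 bases of A or T and GG, was searched as well. It was in 1.47% of windows, in 1 of the 6 risen early genes (Dusp5) and in 2 of the 23 tested ones. Egr1 was not among the early genes with a window, and bases farther upstream than 250 were not searched for any gene.

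Of 27 tested genes of glycolysis and lactate transport, 7 rose, 0 fell and 20 did not pass, with 23 differences above 0 and a list median of 0.15 on the log2 scale. Slc16a3, the monocarboxylate transporter that exports lactate, stood at 38.4, 37.1, 43.2 and 41.9 RPKM at ZT14, against 15.3, 18.8 and 15.8 RPKM at ZT10. The groups were apart by a wide margin, with a log2 difference of 1.25 ± 0.09 (SE; limma adjusted p = 0.00115). Hk2, the hexokinase of photoreceptors that traps glucose in the cell, stood at 192.6, 153.0, 228.4 and 184.3 RPKM at ZT14, against 96.7, 95.8 and 102.7 RPKM at ZT10. Its log2 difference was 0.93 ± 0.12 (SE; limma adjusted p = 0.0160). Slc2a1, the glucose transporter GLUT1, averaged 89.0 ± 6.50 RPKM at ZT14 and 53.6 ± 4.02 RPKM at ZT10. The other rises were Pfkfb3 (0.65), which makes the activator of phosphofructokinase, Pfkl (0.48), a phosphofructokinase subunit, Pgk1 (0.58), the phosphoglycerate kinase, and Ldha (0.59), the lactate dehydrogenase subunit of glycolytic cells. Members that did not pass included Gapdh (0.29), Pkm (0.14), Hk1 (0.15), the neuronal glucose transporter gene Slc2a3 (0.05) and Ldhb (0.02).

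Several of these are textbook targets of hypoxia-inducible factor (HIF), the transcription factor that is stabilised when oxygen is scarce. In a list of oxygen-regulated genes drawn up after their values had been seen, 14 of 35 tested rose and 0 fell. Of all tested genes 0.639% rose and 0.486% fell. In the list 33 of 35 differences were above 0, and the median was 0.37. Because the values were known when it was drawn up, these counts are no test of HIF activity. Of the 14 risen genes 7 were not in the glycolysis list. Ak4, a mitochondrial adenylate kinase, stood at 28.0, 29.9, 32.1 and 26.03 RPKM at ZT14, against 9.70, 10.7 and 9.47 RPKM at ZT10, a log2 difference of 1.49 ± 0.09 (SE; limma adjusted p = 0.000297). Egln1, the prolyl hydroxylase that marks HIF for destruction, averaged 67.8 ± 7.85 RPKM at ZT14 and 33.9 ± 0.45 RPKM at ZT10. P4ha1, a collagen prolyl hydroxylase, averaged 23.9 ± 2.72 RPKM at ZT14 and 12.2 ± 1.25 RPKM at ZT10. Mxi1, an antagonist of MYC, rose by 0.70 and Fam162a by 0.60 on the log2 scale. Vegfa, the vascular growth factor, had a difference of 0.18 and Pdk1, which limits pyruvate entry into mitochondria, of 0.09, and neither passed.

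The glycolysis count was 1, 3 and 1 without ZT10 replicate 1, 2 or 3, 2 without ZT14 replicate 4 and 1 with the low-quality ZT10 library included. The count of oxygen-regulated genes was 4, 6 and 5 without those 3 ZT10 libraries in turn, 9 without ZT14 replicate 3, 6 without ZT14 replicate 4 and 2 with the low-quality library. Slc16a3 and Ak4 passed in each of these fits.

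The sequence upstream of Slc16a3 is shown for 2 copies of ACGTG, the core of the hypoxia response element, close to the start. It is chr11:120948817-120949066 on the plus strand of GRCm38.p6, from RefSeq, with the core in capitals.
Slc16a3: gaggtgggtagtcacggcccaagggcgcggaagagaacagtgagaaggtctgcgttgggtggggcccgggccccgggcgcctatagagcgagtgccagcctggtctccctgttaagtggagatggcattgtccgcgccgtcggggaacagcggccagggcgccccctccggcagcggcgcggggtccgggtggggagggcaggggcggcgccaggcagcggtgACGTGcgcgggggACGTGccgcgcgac
The core, on either strand, was in the windows of 6 of the 7 risen glycolysis genes and of 14 of the 25 tested glycolysis genes with a window. Genes with several windows were counted if any window held the core. It was in 16.6% of all windows, counted singly. It overlaps the E-box CACGTG, which was in 6.02% of windows, and here 1 of the copies also overlaps a copy of TGACG.

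Of 23 tested ER chaperones and regulators of ER protein folding, 6 rose, 0 fell and 17 did not pass, with 19 differences above 0 and a median of 0.14. Xbp1, the transcription factor of the unfolded protein response, stood at 32.2, 34.5, 30.5 and 30.0 RPKM at ZT14, against 15.7, 15.2 and 16.9 RPKM at ZT10. The libraries within each time lay close together, and the log2 difference was 0.97 ± 0.07 (SE; limma adjusted p = 0.00116). Hspa5, the ER chaperone BiP, stood at 95.0, 113.8, 99.1 and 86.9 RPKM at ZT14, against 55.8, 59.1 and 59.3 RPKM at ZT10, a log2 difference of 0.75 ± 0.09 (SE; limma adjusted p = 0.0124). Sdf2l1, a partner of ER chaperones, averaged 7.13 ± 1.13 RPKM at ZT14 and 3.42 ± 0.54 RPKM at ZT10. The secreted stress protein gene Manf rose by 0.55, the chaperone gene Hyou1 by 0.38 and Calr, for calreticulin, by 0.36 on the log2 scale. None of the 19 tested targets of ATF4, the factor of the amino acid and integrated stress response, passed at dusk.

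In the cytosol 5 of 39 tested chaperones and co-chaperones rose, 0 fell and 34 did not pass, with 34 differences above 0 and a median of 0.24. Hspa1b, a stress-inducible HSP70, stood at 25.5, 28.7, 26.6 and 26.01 RPKM at ZT14, against 15.4, 14.8 and 14.9 RPKM at ZT10, a log2 difference of 0.81 ± 0.06 (SE; limma adjusted p = 0.00137). Hspa1a, its near-identical neighbour, averaged 21.1 ± 0.68 RPKM at ZT14 and 13.3 ± 0.74 RPKM at ZT10, and reads of this pair cannot be assigned with certainty. Hspa8, the constitutive HSC70, averaged 335.8 ± 46.2 RPKM at ZT14 and 202.9 ± 8.03 RPKM at ZT10. Dnajb1 (0.48), an HSP40 partner of HSP70, and St13 (0.39), a cofactor of HSP70, also rose. Hsp90aa1, the inducible HSP90, was at 704.6 RPKM at ZT14 and 492.6 RPKM at ZT10 on average, with an adjusted p of 0.0795 in limma. The largest difference in the list, 2.36, was that of Cryab, which is a lens crystallin as well and did not pass. Hspa1a and Hspa1b passed in the fits without any 1 of the 7 libraries.

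The ER count was 1, 1 and 1 without ZT10 replicate 1, 2 or 3, 3 without ZT14 replicate 3, 2 without ZT14 replicate 4 and 0 with the low-quality ZT10 library. The cytosolic count was 2, 2 and 2 without the same 3 ZT10 libraries in turn, 3 without ZT14 replicate 3, 2 without ZT14 replicate 4 and 1 with the low-quality library.

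Upstream of Hspa5 lies a complete ER stress response element, CCAAT followed after 9 bases by CCACG, and the window is shown for that reason, with the element in capitals. It is chr2:34771840-34772089 on the plus strand of GRCm38.p6, from RefSeq.
Hspa5: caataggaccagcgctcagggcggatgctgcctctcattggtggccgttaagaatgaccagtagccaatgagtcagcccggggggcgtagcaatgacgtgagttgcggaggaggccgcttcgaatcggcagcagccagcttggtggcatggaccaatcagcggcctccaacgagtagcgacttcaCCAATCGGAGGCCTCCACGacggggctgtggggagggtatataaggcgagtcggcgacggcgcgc
Of the 4 risen ER genes with a window, Hspa5 and Calr held the element, as did 8 of the 21 tested ER genes with one. A gene was counted if any of its windows held the element. On either strand, 37 of all 32851 windows, counted singly, held it (0.113%). The heat shock element searched, GAA, TTC and GAA with 2 bases between each, was in 0 of the 3 risen cytosolic chaperones with a window, in 3 of the 31 tested ones with a window and in 0.466% of all windows.

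**Figure D2:**
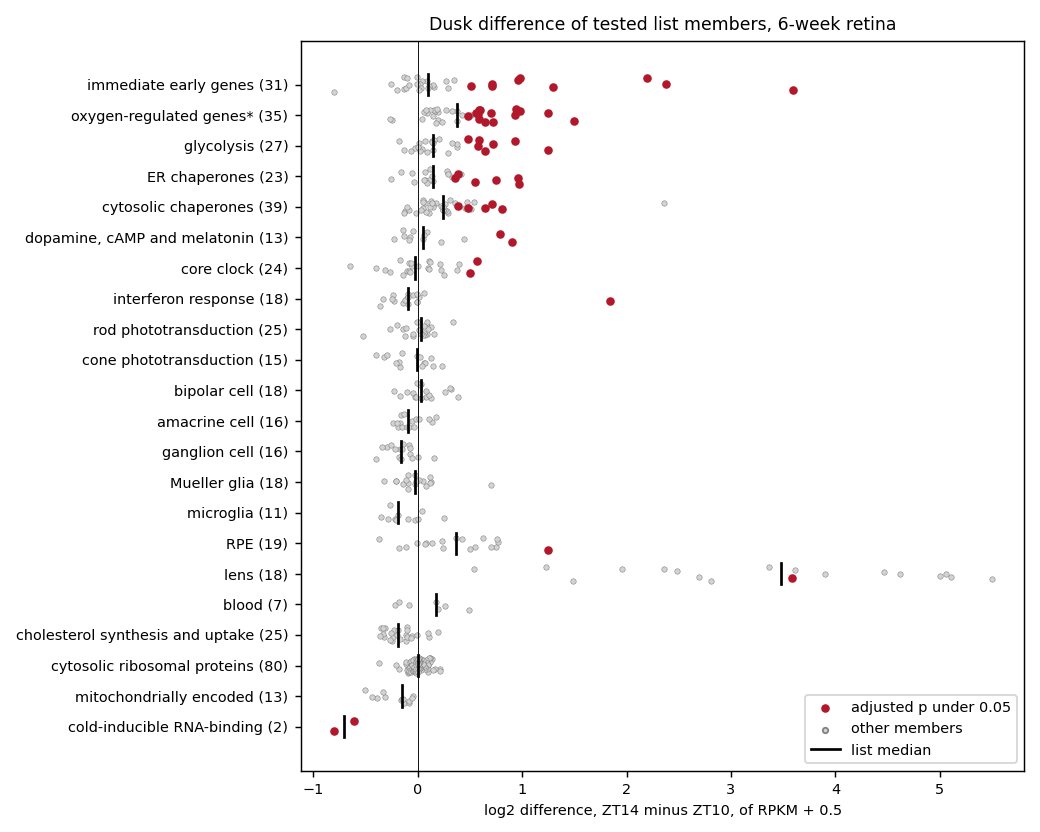
Log2 difference, ZT14 minus ZT10, in RPKM + 0.5, of each tested member of 22 gene lists in 6-week retina; each point is a gene, red points passed at an adjusted p under 0.05, black bars are list medians and numbers in brackets are tested members. The starred list was drawn up after the values had been seen. Red points lie to the right of 0 in each list that has any, except for both cold-inducible genes.

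Receptors and regulators of the light and dark state were represented by a few genes. Drd4, the dopamine D4 receptor of photoreceptors, stood at 151.8, 121.2, 192.5 and 192.4 RPKM at ZT14, against 91.6, 82.7 and 84.6 RPKM at ZT10. The ZT14 libraries were spread more widely than the ZT10 ones but did not overlap them, and the log2 difference was 0.90 ± 0.16 (SE; limma adjusted p = 0.0416). Gnaz, an inhibitory G protein alpha subunit, averaged 61.7 ± 6.76 RPKM at ZT14 and 35.4 ± 2.70 RPKM at ZT10. These 2 were the members that rose among 13 tested genes of dopamine, cyclic AMP and melatonin, and 0 fell. Of all tested genes 0.639% rose and 0.486% fell. Th, the enzyme that limits dopamine synthesis, had a difference of -0.13, Drd2 of 0.45 and Adcy1, the cyclase behind the rhythm of cyclic AMP in photoreceptors, of 0.09, and the libraries of both times overlapped for each. Without ZT10 replicate 1, 2 or 3, or with the low-quality library, 0 members passed, and without ZT14 replicate 1, 3 or 4 it was 1.

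Aqp1, a water channel, stood at 140.7, 138.0, 166.4 and 173.8 RPKM at ZT14, against 79.6, 79.2 and 82.2 RPKM at ZT10. All ZT14 libraries were above all ZT10 ones, with a log2 difference of 0.93 ± 0.09 (SE; limma adjusted p = 0.00547). Aqp1 is also a gene of the ciliary body and iris, and the summed RPKM of the other 14 genes of that list was 8.66 to 14.6 at ZT14 and 11.9 to 13.3 at ZT10. Irf7, an interferon regulatory factor, stood at 10.1, 10.02, 11.0 and 14.9 RPKM at ZT14, against 2.77, 2.92 and 2.72 RPKM at ZT10. The log2 difference was 1.84 ± 0.13 (SE; limma adjusted p = 0.00115). It rose alone among 18 tested interferon response genes, against 0.639% of all tested genes, and 3 of the 18 had a difference above 0. Isg15 was at -0.25 and Ifit1 at -0.34, neither of which passed. With the low-quality ZT10 library Irf7 had an adjusted p of 0.0818 in limma.

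Of 24 tested clock genes 2 rose and 0 fell, against 0.639% and 0.486% of all tested genes. The differences ran between -0.65 and 0.56 on the log2 scale, and the libraries of both times were apart in 7 genes, 5 higher and 2 lower at ZT14, against 5.02% and 12.2% of all tested genes. Nfil3, a repressor that binds the same D-box sites as Dbp, averaged 9.33 ± 0.25 RPKM at ZT14 (SD, n = 4) and 6.45 ± 0.28 RPKM at ZT10 (SD, n = 3), a log2 difference of 0.50 ± 0.07 (SE; limma adjusted p = 0.0167). Rorb, a nuclear receptor needed for rod fate that also acts on clock promoters, averaged 32.2 ± 2.97 RPKM at ZT14 and 21.6 ± 1.52 RPKM at ZT10, a log2 difference of 0.56 ± 0.09 (SE; limma adjusted p = 0.0288). Per1, a light-inducible period gene, was at 21.1, 17.8, 18.4 and 21.02 RPKM at ZT14, against 14.2, 14.7 and 15.3 RPKM at ZT10, which did not overlap but had an adjusted p of 0.0663. Cry1, a cryptochrome repressor, at 0.22 and the kinase gene Csnk1d at 0.10 were also higher in all ZT14 libraries, and Dbp at -0.32 and Ciart at -0.65 were lower in all, without passing. The libraries overlapped in other clock genes, among them Per2 (0.21), Per3 (-0.06), Cry2 (-0.06), Arntl (-0.08), Clock (-0.14), Nr1d1 (0.12), Nr1d2 (-0.08), Rora (0.11), Bhlhe40 (-0.26), Bhlhe41 (0.11), Tef (-0.08), Hlf (-0.17), Noct (0.25), Fbxl21 (-0.40) and Csnk1e (-0.00), each a log2 difference. Without ZT10 replicate 1, 2 or 3, without ZT14 replicate 4 or with the low-quality library 0 clock genes passed, and 1 passed without ZT14 replicate 1 or 3.

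Among the called genes the median log2 difference was -0.77 for the 44 falls and 0.83 for the 48 rises. Both tested cold-inducible RNA-binding proteins fell. Cirbp stood at 64.9, 46.1, 72.0 and 70.8 RPKM at ZT14, against 116.1, 108.8 and 102.5 RPKM at ZT10, a log2 difference of -0.80 ± 0.15 (SE; limma adjusted p = 0.0492). Rbm3 stood at 14.2, 11.7, 11.5 and 12.4 RPKM at ZT14, against 19.9, 21.1 and 16.9 RPKM at ZT10, a log2 difference of -0.61 ± 0.10 (SE; limma adjusted p = 0.0349), and its pseudogene Rbm3-ps, which can share its reads, was called lower too. Both bind RNA and are known to accumulate when cells cool mildly. Neither passed without ZT10 replicate 1, 2 or 3, without ZT14 replicate 3 or 4, or with the low-quality ZT10 library, and 1 of them passed without ZT14 replicate 1.

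Among the other falls, Sema6c, a transmembrane semaphorin, was at 5.53, 3.77, 3.75 and 4.92 RPKM at ZT14, against 9.41, 8.97 and 8.81 RPKM at ZT10. The highest ZT14 library was well under the lowest ZT10 library, with a log2 difference of -0.95 ± 0.13 (SE; limma adjusted p = 0.0190). Hmgb2, a chromatin protein that bends DNA, was at 14.1, 13.0, 18.5 and 16.2 RPKM at ZT14, against 29.9, 29.5 and 26.1 RPKM at ZT10. Ehd4, a protein of endocytic membranes, was at 10.5, 9.49, 11.4 and 10.2 RPKM at ZT14, against 16.2, 17.4 and 18.2 RPKM at ZT10, and had the smallest adjusted p of the falls shown here, 0.00838 in limma. Glmn, which binds cullin ubiquitin ligases, averaged 15.5 ± 1.65 RPKM at ZT14 and 26.6 ± 2.87 RPKM at ZT10. Mylip, the ubiquitin ligase of the LDL receptor, averaged 7.85 ± 0.80 RPKM at ZT14 and 12.9 ± 0.62 RPKM at ZT10. Nsun3, a methyltransferase of mitochondrial tRNA, averaged 1.13 ± 0.16 RPKM at ZT14 and 2.17 ± 0.13 RPKM at ZT10, and the zinc finger gene Zc3h6 averaged 3.13 ± 0.37 RPKM at ZT14 and 5.26 ± 0.19 RPKM at ZT10. AU041133, annotated as protein-coding, averaged 2.73 ± 0.47 RPKM at ZT14 and 4.72 ± 0.43 RPKM at ZT10.

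Some of the named falls were non-coding. Rncr4, a retinal transcript from the strand opposite the miR-183 cluster, averaged 59.1 ± 10.9 RPKM at ZT14 and 100.1 ± 7.35 RPKM at ZT10. Sp3os, which is transcribed opposite Sp3, averaged 2.10 ± 0.28 RPKM at ZT14 and 3.72 ± 0.40 RPKM at ZT10, while Sp3 itself had a log2 difference of -0.30 and an adjusted p of 0.131 in limma. Whether reads were counted by strand is not given in the sources used here, so reads of either strand cannot be told apart at these loci. Mir5119 rested on 0 to 1 reads per ZT14 library and 3 to 10 reads per ZT10 library. Hnrnpdl, a splicing regulator, was the 1 member that fell (-0.37) among 46 tested SR and hnRNP factors, and 0 rose. Of all tested genes 0.486% fell and 0.639% rose. Hnrnpdl passed without ZT14 replicate 2 and lost the call without any other 1 of the 7 libraries.

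Crygd, a gamma crystallin of the lens, was the second largest of the called rises that met the naming rule and belongs with the lens sums given above. It was at 14.5, 12.1, 3.31 and 20.0 RPKM at ZT14, against 0, 0.14 and 1.92 RPKM at ZT10, which corresponds to 136 to 873 reads per library at ZT14 and 0 to 68 at ZT10. The log2 difference of 3.59 ± 0.66 (SE) had an adjusted p of 0.0492 in limma. Crygd was the 1 lens gene that passed of 18 tested, against 0.639% of all tested genes higher. Yet 14 of the 18 were higher in all ZT14 libraries, against 5.02% of all tested genes, and the list median was 3.48. The largest lens difference, 5.5, was that of a gene that did not pass. Crygd reached 0.5 RPKM in only 1 ZT10 library, so it entered the test through its ZT14 values. Cryaa, Crygs and Crybb2 were under 0.5 RPKM in ZT10 replicate 1 and also needed their ZT14 values. The count of lens genes higher in all ZT14 libraries is therefore not independent of the filter. Without ZT14 replicate 3, the ZT14 library with the fewest lens reads, 7 lens genes passed, and without any other 1 library 0 did. Crystallin genes are closely related in sequence, so reads can be shared among them.

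Beyond these groups few lists held a call, where 0.639% of all tested genes were higher and 0.486% lower at an adjusted p under 0.05. Dusp1 and Klf9, a glucocorticoid-induced transcription factor (0.34), rose among 19 tested glucocorticoid-responsive and metallothionein genes and 0 fell. This count was 0 without ZT10 replicate 1 or 2, without ZT14 replicate 1, 3 or 4 and with the low-quality ZT10 library, and 1 without ZT10 replicate 3. Rorb was the 1 that rose among 16 transcription factors of photoreceptors, and Slc16a3 the 1 among 19 RPE genes. Rorb did not pass without ZT10 replicate 1, 2 or 3, without ZT14 replicate 1, 3 or 4 or with the low-quality library. None of 25 rod and 15 cone phototransduction genes passed, nor of 18 bipolar, 16 amacrine, 6 horizontal and 16 ganglion cell markers, 18 Müller glia, 6 astrocyte, 11 microglia, 7 vascular and 7 blood genes. None passed among 13 genes of the visual cycle, 18 of outer segment phagocytosis, 27 of the ribbon synapse, 25 of cholesterol synthesis and uptake, 27 of fatty acid oxidation, 22 antioxidant genes, 13 mitochondrially encoded genes, 36 of complex I, 80 ribosomal proteins, 34 proteasome subunits, 14 of reactive gliosis and 18 neuropeptides. The cholesterol list had a median of -0.18 with 3 of 25 differences above 0. The mitochondrially encoded list had a median of -0.15 with 0 of 13 above 0. The median of all tested genes was -0.07, and the ganglion and amacrine markers, at -0.16 and -0.09, had sums of 442.7 to 977.3 and 330.5 to 659.5 RPKM at ZT14, against 571.8 to 757.3 and 411.6 to 520.0 RPKM at ZT10.

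The same genes were then followed over the 6 sampled times. In young retina Egr1 averaged 3.16, 6.54, 4.50, 55.8, 33.7 and 8.82 RPKM at ZT2, ZT6, ZT10, ZT14, ZT18 and ZT22, so its level was already lower later in the dark than at ZT14. Nr4a1 averaged 6.22, 5.58, 5.41, 30.3, 26.3 and 14.2 RPKM at those times, and Ak4 9.62, 9.36, 9.96, 29.0, 20.2 and 15.9 RPKM. Irf7 and Drd4 had their highest mean at ZT18 instead. Irf7 averaged 6.64, 3.30, 2.80, 11.5, 16.7 and 13.5 RPKM, and Drd4 119.9, 80.0, 86.3, 164.5, 200.7 and 176.5 RPKM. Xbp1 averaged 23.7, 17.1, 15.9, 31.8, 30.8 and 24.7 RPKM, with a higher level at ZT2 than at the later light times. Cirbp averaged 97.0, 116.4, 109.2, 63.5, 68.1 and 73.1 RPKM, its 3 dark means lying under its 3 light means. These courses are given as means of 4 libraries, or 3 at ZT10, and no rhythm was tested here.

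**Figure D3:**
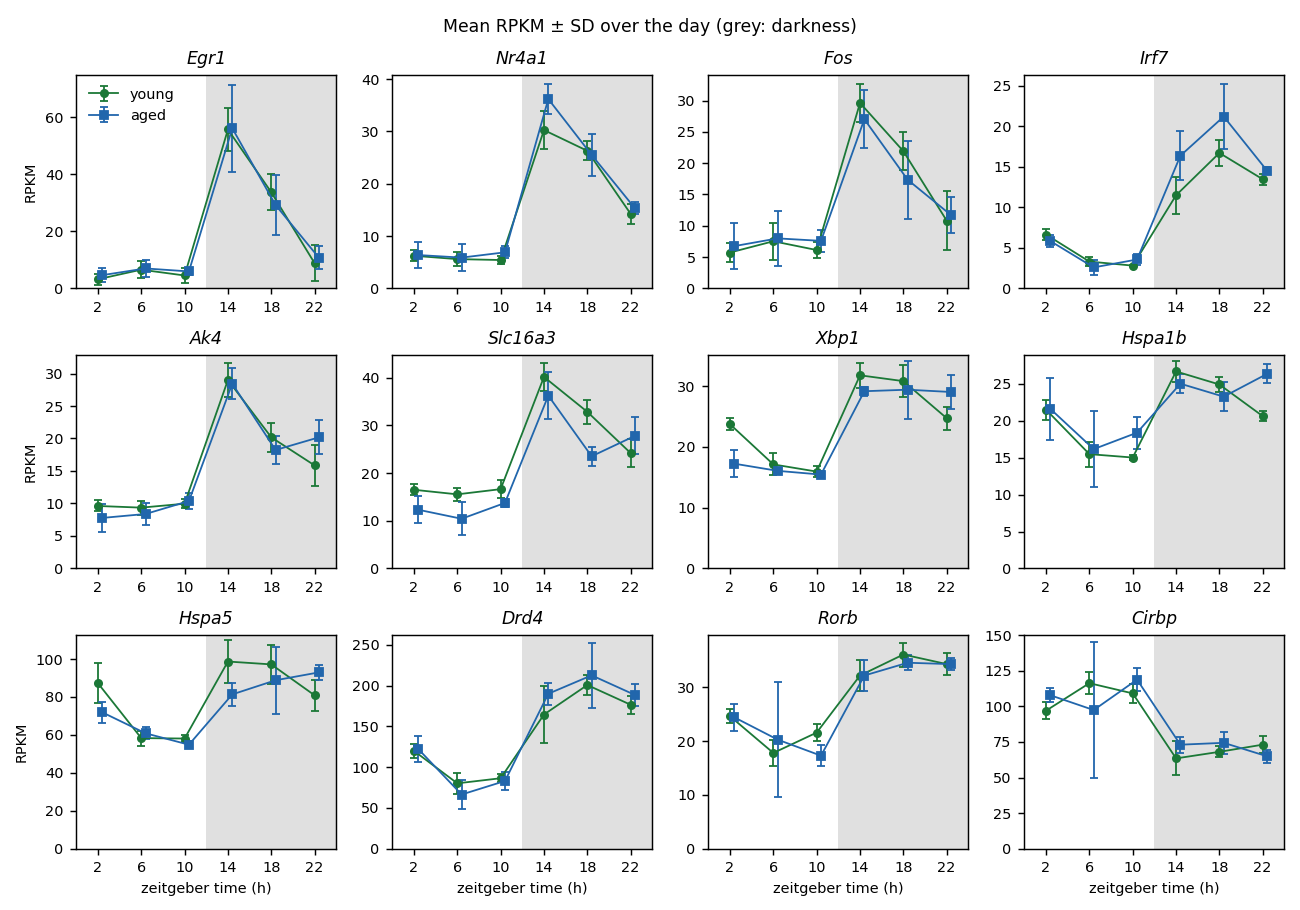
Mean RPKM ± SD of 12 genes at 6 zeitgeber times in 6-week (green circles) and 20-month (blue squares, shifted slightly) retina, 4 libraries per point except 3 at young ZT10 and at aged ZT18; grey marks darkness. Egr1, Nr4a1, Fos and Ak4 have their highest mean at ZT14 in both ages.

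The dusk change was also measured in 20-month retina, in libraries that the young comparison did not use. There 148 genes were called (0.985% of those tested), 82 higher (0.546%) and 66 lower (0.439%) at ZT14, and median-ratio scaling gave 103 higher and 38 lower. By the adjusted p alone 627 passed (4.17%). Of the 48 young rises 35 were called higher in aged retina, which is 72.9% of the young and 42.7% of the aged rises, and of the 44 young falls 24 were called lower, 54.5% of the young and 36.4% of the aged falls. None was called in the opposite direction. In aged retina 47 of the 48 young rises were above 0, where 36.8% of all tested genes were, and 41 of the 44 falls were below 0, where 63.2% were. The median log2 difference of the rises was 0.83 in young and 0.83 in aged retina, and that of the falls -0.77 in young and -0.66 in aged retina.

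By gene, Egr1 averaged 56.2 ± 15.4 RPKM at aged ZT14 and 5.93 ± 1.301 RPKM at aged ZT10 (SD, n = 4 each), a log2 difference of 3.13 ± 0.22 (SE; limma adjusted p = 0.000336). Nr4a1 averaged 36.2 ± 2.89 RPKM at aged ZT14 and 6.88 ± 1.18 RPKM at aged ZT10, and Irf7 16.4 ± 3.01 RPKM at aged ZT14 and 3.56 ± 0.64 RPKM at aged ZT10. Xbp1 averaged 29.2 ± 0.74 RPKM at aged ZT14 and 15.5 ± 0.60 RPKM at aged ZT10, with an adjusted p of 6.79e-05 in limma. Drd4 averaged 190.0 ± 13.7 RPKM at aged ZT14 and 82.9 ± 11.6 RPKM at aged ZT10. Of the falls, Sema6c averaged 4.59 ± 0.41 RPKM at aged ZT14 and 10.5 ± 0.50 RPKM at aged ZT10, and Cirbp 73.1 ± 5.601 RPKM at aged ZT14 and 118.9 ± 8.15 RPKM at aged ZT10. By list, 8 of 31 immediate early genes rose in aged retina, 8 of 27 glycolysis genes, 20 of 35 oxygen-regulated genes, 8 of 23 ER and 13 of 39 cytosolic chaperones, with 0 falls in each, against 2.19% of all tested genes higher and 1.98% lower at an adjusted p under 0.05. Crygd was at 0.69 ± 1.24 RPKM at aged ZT14 and 0.15 ± 0.27 RPKM at aged ZT10, and 0 of 18 lens genes passed there. Neighbouring tissue differed in the aged libraries too: the blood sum was 104.2 to 764.6 at aged ZT14 and 41.4 to 82.5 at aged ZT10, and the RPE sum 182.7 to 395.6 at aged ZT14 and 102.1 to 134.5 at aged ZT10. Its part in the aged values was not tested.

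The test of the difference itself, young minus aged dusk change, called 0 genes in limma, with 704 (4.68%) at an unadjusted p under 0.05, and limma voom on recovered reads also called 0. Named genes at the smallest adjusted p, 0.850, were Spc25, a kinetochore protein, and March9, a membrane-bound ubiquitin ligase. Spc25 had a dusk difference of -0.14 in young and 0.41 in aged retina, and March9 of 0.42 in young and 0.04 in aged retina. The others with the smallest p were Rd3l, Mogat1, Mir6386, Pfdn4, Slc35e3 and Mrps14. Mir6386 rested on 0 reads in each young ZT14 library and 2 to 5 reads per young ZT10 library. It met the filter through its young ZT10 values alone. For Nr4a1 the young minus aged difference was 0.05 ± 0.18 (SE), for Ak4 0.08 ± 0.13 and for Egr1 0.47 ± 0.38. For Hspa1b, at 0.37 ± 0.11 with an unadjusted p of 0.00354, the young change of 0.81 exceeded the aged one of 0.44 without passing the adjustment. Leaving out aged ZT10 replicate 3 or 4 or aged ZT14 replicate 4 gave 465, 87 and 92 aged calls, and the count of genes that differed between ages was 0 without any 1 library except aged ZT10 replicate 1, without which it was 1.

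**Figure D4:**
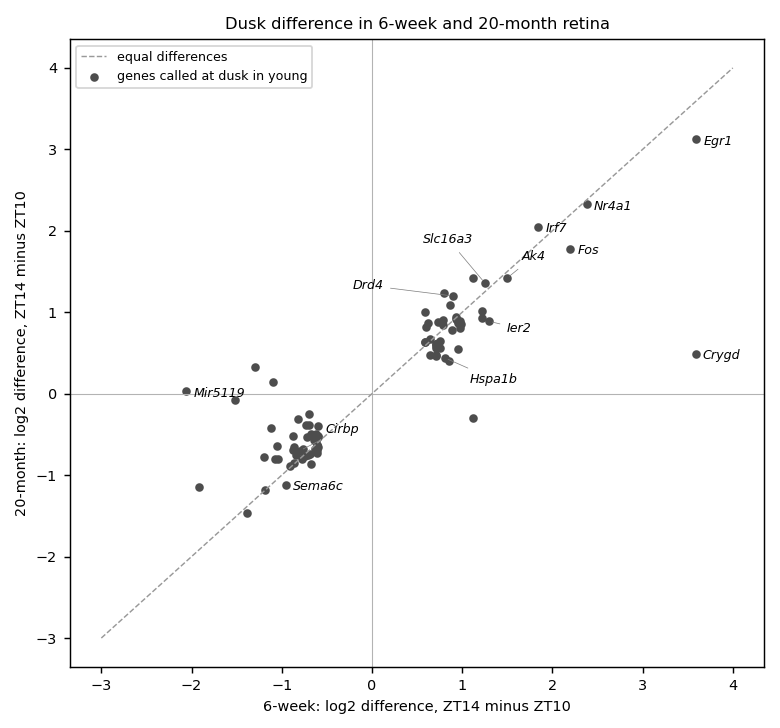
Log2 dusk difference (ZT14 minus ZT10, RPKM + 0.5) of the 92 genes called in 6-week retina (horizontal axis) against the same difference in 20-month retina (vertical axis). Points would lie on the dashed line if both differences were equal; 47 of 48 rises lie above 0 and 41 of 44 falls below 0 on the vertical axis.

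Dawn offers a second boundary between dark and light, measured in other young libraries as ZT22, the last dark time, minus ZT2, the first light time. Of the tested genes 28 were called (0.186%), 18 higher (0.120%) and 10 lower (0.0665%) at ZT22. Of the 48 dusk rises 5 were called higher in the dark at dawn as well, 10.4% of the dusk rises and 27.8% of the 18, and of the 44 dusk falls 5 were called lower, 11.4% of the dusk falls and 50% of the 10. The shared genes with a symbol that is no clone name were Nr4a1, Irf7, P4ha1 and Gnaz among the rises and Glmn and Actg1, a cytoplasmic actin, among the falls. The dusk rises had a median dark minus light difference of 0.44 at dawn, against 0.83 at dusk, and the falls -0.34 at dawn, against -0.77 at dusk. Of the rises 40 of 48 were above 0 at dawn, where 51.3% of all tested genes were, and 41 of 44 falls were below 0, where 48.7% were.

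The dusk minus dawn difference passed in 6 genes (0.0399%), all of them larger at dusk. Xbp1 had a dark minus light difference of 0.97 ± 0.07 at dusk and 0.06 ± 0.07 (SE) at dawn, and the difference of 0.92 had an adjusted p of 0.000791 in limma. Hspa1b had 0.81 ± 0.06 at dusk and -0.06 ± 0.06 at dawn, with the smallest adjusted p of this test, 0.000403, and Hspa1a had 0.64 ± 0.06 at dusk and -0.02 ± 0.08 at dawn. Nr4a1 passed at both boundaries but by 2.38 ± 0.12 at dusk and 1.14 ± 0.13 at dawn. Map3k14, the kinase of non-canonical NF-kappaB signalling, had 0.89 ± 0.08 at dusk and 0.05 ± 0.09 at dawn, and the clone gene 1110018N20Rik had a dusk minus dawn difference of 0.78. Hspa5, Irf7 and Ubtf, a factor of ribosomal RNA transcription, came next with adjusted p of 0.0555, 0.0622 and 0.0622 and did not pass. Egr1, with 3.60 ± 0.28 at dusk and 1.24 ± 0.52 at dawn, did not pass either (adjusted p = 0.275). By list, the median at dawn was -0.06 for ER chaperones, 0.01 for cytosolic chaperones, 0.04 for glycolysis and 0.12 for oxygen-regulated genes. At an adjusted p under 0.05, 0 ER and 0 cytosolic chaperones passed at dawn in either direction, 1 glycolysis gene rose, and 0.220% of all tested genes were higher and 0.153% lower. Of 19 tested RPE genes 8 were higher at ZT22 than at ZT2 and 0 lower at that adjusted p, with a list median of 0.65. The part of this neighbouring tissue in the dawn values was not tested.

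The count of 6 was 2 without young ZT10 replicate 2 or 3 and 1 with the low-quality ZT10 library, and 10 under median-ratio scaling. The 28 dawn calls became 14, 16 and 17 without young ZT2 replicate 2, young ZT2 replicate 4 or young ZT22 replicate 1.

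**Figure D5:**
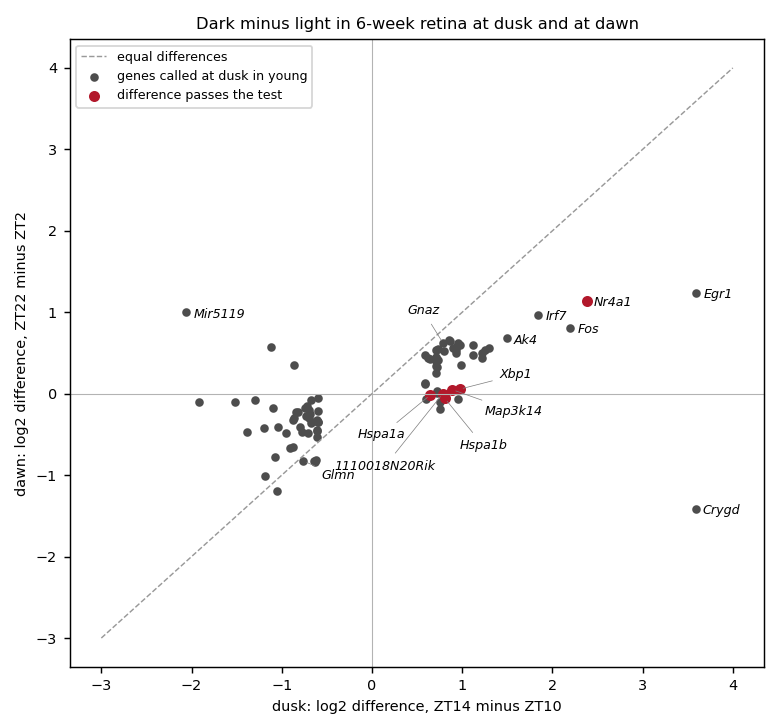
Log2 dark minus light difference of the 92 dusk genes in 6-week retina at dusk (horizontal axis, ZT14 minus ZT10) and at dawn (vertical axis, ZT22 minus ZT2). Red points passed the test of the dusk minus dawn difference; 5 of these 6 lie near 0 at dawn and Nr4a1 lies at 1.14.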

How the data were processed

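Retinal messenger RNA was sequenced after poly-T selection and random-hexamer priming, per the labels' protocols. Tools named in the submitters' processing notes are FastQC 0.23.4, HISAT2 2.2.1, Subread 2.0.6, with the build GRCm39 and no roles. The annotation release is not given in the sources used here. Values are RPKM as the authors deposited them, 1 column per library, and 1 column matching no sample was left aside.

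The 7 libraries and 15027 genes were tested with limma 3.58.1 under R 4.3.3 on the log2(RPKM + 0.5) scale (trended eBayes, two-sided, Benjamini-Hochberg adjustment over all tested genes), with the adjusted p of 0.05 and the fold of 1.5 that the authors used with edgeR, per the labels. Because of the added 0.5, the fold of a low gene is understated. The age and dawn comparisons used the same genes, and differences between comparisons were contrasts of 4 group means. The labels name 4 mice per group, so libraries are separate animals. Replicate pairs differed by more than sampling noise (mean chi-square per gene 7.63 to 89.6 over 9 pairs), so no library was counted as a repeat deposit.

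Low RPKM values are whole multiples of 1 read. With exon lengths of GENCODE M21, an annotation of an earlier build used for names and lengths only, or a fitted length, reads within 0.01 of a whole number were recovered for all but 85 of 37323 genes above 0. Symbols were found for 51884 identifiers. Upstream windows came from a RefSeq table of GRCm38.p6, and 62 of 81 named genes had one.

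The comparison and the 43 gene lists were chosen with earlier results of these data known. Named genes were the 12 largest called rises and falls with at least 2 RPKM in either group, no overlap of groups and no clone or pseudogene name; tested clock genes; up to 6 passing members per list; and the 8 smallest adjusted p for each difference. A few genes that this rule or the lists hold are not reported here. Other genes named were chosen after their values were seen. Alternatives changed the pseudocount, filter, scaling, fold minimum, replicate block, variance trend, libraries and weights; limma voom on recovered reads and the list of oxygen-regulated genes were added after seeing the data. Only the main dusk fit of 6-week retina was tested on simulated data first.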

Additional observations from a re-analysis of the deposited data

Results flagged for a closer look

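The dark minus light difference was larger at dusk than at dawn in 6 genes of 6-week retina by the test of that difference itself. The difference of the differences, on the log2 scale, was 1.24 for Nr4a1 (limma adjusted p = 0.0253), 0.92 for Xbp1 (0.000791), 0.86 for Hspa1b (0.000403), 0.84 for Map3k14 (0.0118), 0.78 for 1110018N20Rik (0.0120) and 0.66 for Hspa1a (0.0253). All 4 ZT14 libraries were above all 3 ZT10 libraries for each of them.

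The summed RPKM of blood genes was 149.2 in ZT14 replicate 1, against 64.7 to 76.2 in the other 3 ZT14 libraries. It was the 1 value flagged among 89 quantities screened, where chance alone is known to flag about 1 group in 20. The same library had the highest lens sum, 3352 against 83.8 to 650.8 in the other 3 ZT14 libraries, which was not flagged. The hemoglobin genes are close copies whose reads can be shared.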

How the results depend on the processing

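The 92 dusk calls kept within 1.5 times under pseudocounts of 0.1 and 1, a filter at 1 RPKM, median-ratio and quantile scaling, a fit of 12 group means, no variance trend and limma voom (74 to 122 calls). The count moved to 41 without a filter, 169 without a fold minimum, 24 at a fold over 2, 7 with the low-quality ZT10 library and 222 with that library down-weighted. Leaving out 1 library at a time gave 21 to 89 calls, 87 to 465 in aged retina, 0 to 1 for the difference between ages, 14 to 30 at dawn and 2 to 9 for dusk minus dawn. The 6 genes of that last test became 10 under median-ratio scaling, 10 with limma voom and 1 with the low-quality library. With a replicate block the dusk calls were 7, the dawn calls 0 and the dusk minus dawn calls 0. Same-numbered ZT14 and ZT10 libraries correlated at -0.10, -0.10 and -0.01 in their deviations from group means, and other pairs at -0.09 to 0.19. These few values cannot settle whether the numbers mark pairs. Why calls were lost under the block was not tested.

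Of 49 named genes that passed, Nr4a1, Ak4, Fos, Slc16a3 and Egr1 passed under all 19 alternatives, and 0 of the 49 changed direction under any. Without 1 ZT10 library, which left that group with 2, 14 to 15 of the 49 passed. Depth was 32500000 reads or more in each of the 7 libraries. Mir5119, at 0 to 10 reads per library, and Mir6386, at 0 to 5, are named genes that this depth limits.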

Other observations

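Further genes called at dusk in 6-week retina belong to none of the lists and were chosen after their values were seen. Zdhhc5, a palmitoyl transferase of the plasma membrane, averaged 77.2 ± 4.96 RPKM at ZT14 (SD, n = 4) and 46.1 ± 2.30 RPKM at ZT10 (SD, n = 3), a log2 difference of 0.74 ± 0.07 (SE; limma adjusted p = 0.00452). Sik2, a salt-inducible kinase related to Sik1, averaged 8.35 ± 0.54 RPKM at ZT14 and 4.37 ± 0.58 RPKM at ZT10, and rose by 0.87 at dusk in young and by 1.09 in aged retina. Kdm6b, a demethylase of histone H3, rose by 0.71, Jmjd6, a further dioxygenase of the same fold, by 0.71, and Spry2, a feedback inhibitor of receptor tyrosine kinases, by 0.62 on the log2 scale. Each of these was called in aged retina too, except Jmjd6, whose aged difference of 0.58 passed the adjusted p without reaching the fold minimum.

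Among the falls, Actg1 was at 80.9, 92.8, 68.2 and 79.3 RPKM at ZT14, against 129.6, 115.7 and 126.9 RPKM at ZT10, and its pseudogenes can share its reads. Hpcal1, a calcium sensor of neurons, averaged 33.6 ± 3.49 RPKM at ZT14 and 53.8 ± 4.11 RPKM at ZT10. Pcare, an actin regulator of the photoreceptor cilium, averaged 53.3 ± 6.96 RPKM at ZT14 and 81.0 ± 4.19 RPKM at ZT10, with log2 differences of -0.61 in young and -0.69 in aged retina. Dyrk2, a protein kinase, averaged 22.8 ± 2.23 RPKM at ZT14 and 35.4 ± 1.18 RPKM at ZT10. All 4 were lower in every ZT14 library than in any ZT10 library.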
